A study of Mus musculus with 2 samples.

Results

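The guanylate-binding proteins (GBPs) and the immunity-related GTPases (IRGs) are 2 families of GTP-hydrolysing enzymes that cells make in response to interferon. Their levels were followed here in leukocytes and melanoma cells from mouse tumours, as 10 genes: Gbp2, Gbp2b, Gbp3, Gbp4, Gbp5, Gbp6, Gbp7, Iigp1, Igtp and Irgm1. The genes were chosen by symbol, and all 10 are among the 31053 genes of the deposited tables. Cells came from subcutaneous B16-F10 tumours, a melanoma line, implanted in 10-week-old female wild-type C57BL/6 mice. There was 1 library from mice labelled only as control and 1 from mice given an agonist of OX40, the product of Tnfrsf4 and a receptor that costimulates activated T cells. Both were sorted for CD45 and for viability by DAPI. The protocol gives live cells as DAPI-, and the series' design text writes the sign the other way, so the protocol was followed. Not given in the sources used here are the dose, the timing, what control mice received and how many mice were pooled. The question was how the level of each GTPase is spread over the cell types and how it differs between the libraries.

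Interferon-gamma acts through its receptor and the kinases Jak1 and Jak2 on genes that carry a palindromic element called GAS (gamma-activated site). Irf1, a transcription factor that interferon-gamma induces, binds a second element, the ISRE (interferon-stimulated response element), through which type I interferon also acts. GBPs are dynamin-like proteins that coat the vacuoles and surfaces of intracellular microbes and help to start caspase-4 inflammasomes. Among the IRGs, Iigp1 (Irga6) is an effector that loads onto pathogen vacuoles, while Irgm1 and Igtp (Irgm3) are regulators that sit on the cell's own membranes and hold effectors inactive there. Much of what is known of them comes from infected macrophages and fibroblasts, and they serve as common readouts of interferon-gamma exposure in tumours.

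Of the 10 genes, 9 lie on 3 chromosomes (GRCm38, GENCODE M21). Gbp5, Gbp7, Gbp3, Gbp2b and Gbp2 stand in a row on the plus strand of chromosome 3, from the start of Gbp5 at 142493978 to the end of Gbp2 at 142638008. Gbp4 (105115767 to 105139586) and Gbp6 (105270702 to 105293698) are on the minus strand of chromosome 5. Irgm1 (48861968 to 48871683, minus strand) and Igtp (58199556 to 58207591, plus strand) are on chromosome 11. The position of Iigp1 is not reported here.

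Of 7 members with a RefSeq promoter window (GRCm38.p6, the 250 bases before the start site), 7 held the ISRE core (GAAA, any 2 bases, GAAA) on either strand, against 2.98% of 32851 such windows. The GAS letters TTCNNNGAA were found in 3 of the 7, Gbp5, Gbp7 and Igtp, against 7.02% of windows. Both motifs together occurred in 0.332% of windows. Windows of Gbp4, Gbp6 and Iigp1 were not analysed here, and a second start site of Gbp3 held neither motif. Matched stretches are shown because these elements are the letters the members share, each on its gene's strand, with the motif letters in capitals. The span printed for each is given after its name. The stretch of Gbp5, 212 bases long, is not printed.
Gbp2, chr3:142620599-142620618, plus strand: tttagTTTCACTTTCactgt
Gbp2b, chr3:142594705-142594724, plus strand: tctaaTTTCACTTTCttctt
Gbp3, chr3:142559994-142560019, plus strand: cacagTTTCAGTTTCTATTTCccaga
Gbp7, chr3:142530225-142530297, plus strand: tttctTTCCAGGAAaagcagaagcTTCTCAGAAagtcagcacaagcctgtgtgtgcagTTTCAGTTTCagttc
Igtp, chr11:58199506-58199536, plus strand: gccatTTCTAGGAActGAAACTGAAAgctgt
Irgm1, chr11:48871430-48871455, minus strand: ttcaaGAAATAGAAACCGAAActgat
Irgm2, chr11:58214897-58214927, plus strand: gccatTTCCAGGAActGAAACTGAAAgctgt
In the first 4 the ISRE core reads as its reverse complement (TTTC, any 2 bases, TTTC). Gbp3 and Irgm1 hold 2 overlapping copies. Irgm2, a relative outside the 10, is set beside Igtp because its GAS and ISRE letters follow each other in the same layout, with first bases 75 and 64 bases before the start site, against 45 and 34 in Igtp. Tgtp1 and Tgtp2, also outside the 10, have the same layout, with first bases at 88 and 77 and at 81 and 70. A match is a run of letters and not a measured binding site.

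The libraries held 7187 control and 8569 treated barcodes, with 114026695 and 118059108 UMIs (unique molecular identifiers, 1 per captured RNA molecule). After filters on depth, mitochondrial share and doublets, 5989 and 6986 cells were kept, of which marker gates left 353 and 407 unplaced and set aside 144 and 123 droplets with markers of 2 lineages. The libraries share 18 barcode sequences. Levels are in CPM: a gene's UMIs summed over a cell type in a library, per 1000000 UMIs of that cell type. A 3′ UMI counts a molecule once whatever its length, but each gene's 3′ end may be captured differently, so levels were compared between cell types and libraries, and between genes only as shares of the members' UMIs. With 1 library per group there is no replicate check and no test. Intervals in parentheses are 95% counting intervals and leave out differences between mice, preparations and cells. A log2 ratio is treated over control after adding 10 CPM to both, a member is called measured at 10 CPM or more in either library, and 1.5-fold on that scale is the size used for counts. In a summed class, fewer expressing cells and less RNA per cell cannot be told apart.

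Mononuclear phagocytes were split by the macrophage list (C1qa, C1qb, C1qc, Ms4a7, Mrc1, Trem2) and the monocyte list (such as Ly6c2, Ccr2 and Chil3) into C1q-high macrophages (1081 control and 1456 treated cells), C1q-intermediate phagocytes (617 and 748) and monocytes (698 and 727). The macrophage list stood at 12178 and 11647 CPM in the first and at 191 and 216 CPM in the monocytes. Melanoma cells (415 and 598), which passed the CD45 sort, had 19695 and 18870 CPM of melanoma markers. They held 151 and 82.9 CPM of 8 pan leukocyte markers, none at 0. Other classes with at least 50 cells in each library were type 1 and type 2 conventional dendritic cells (cDC1, 59 and 102; cDC2, 102 and 131), mature migratory dendritic cells (DCs; 223 and 419), CD8 T cells (1557 and 1211), regulatory T cells (173 and 279), conventional CD4 T cells (54 and 97), other T cells (187 and 215) and NK cells (251 and 271).

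The members were spread unevenly over these 12 classes, and each had its own pattern. Summed over the 10 genes, the level was highest in monocytes in both libraries, at 1578 CPM in the control and 1290.1 CPM in the treated library. CD8 T cells were lowest in the control library, at 285 CPM (278 to 292), and cDC1 in the treated library, at 154 CPM (134 to 175). In the control library melanoma cells and C1q-intermediate phagocytes both stood at 786 CPM, above migratory DCs (573 CPM) and NK cells (338 CPM). Of the 10 members, 7 had a higher level in mononuclear phagocytes than in CD8 T cells in both libraries, where 38.3% of all 8157 genes compared did so. The exceptions were Gbp4, Gbp6 and Gbp7, which were higher in phagocytes in the control library and lower in the treated library.

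**Figure D1:**
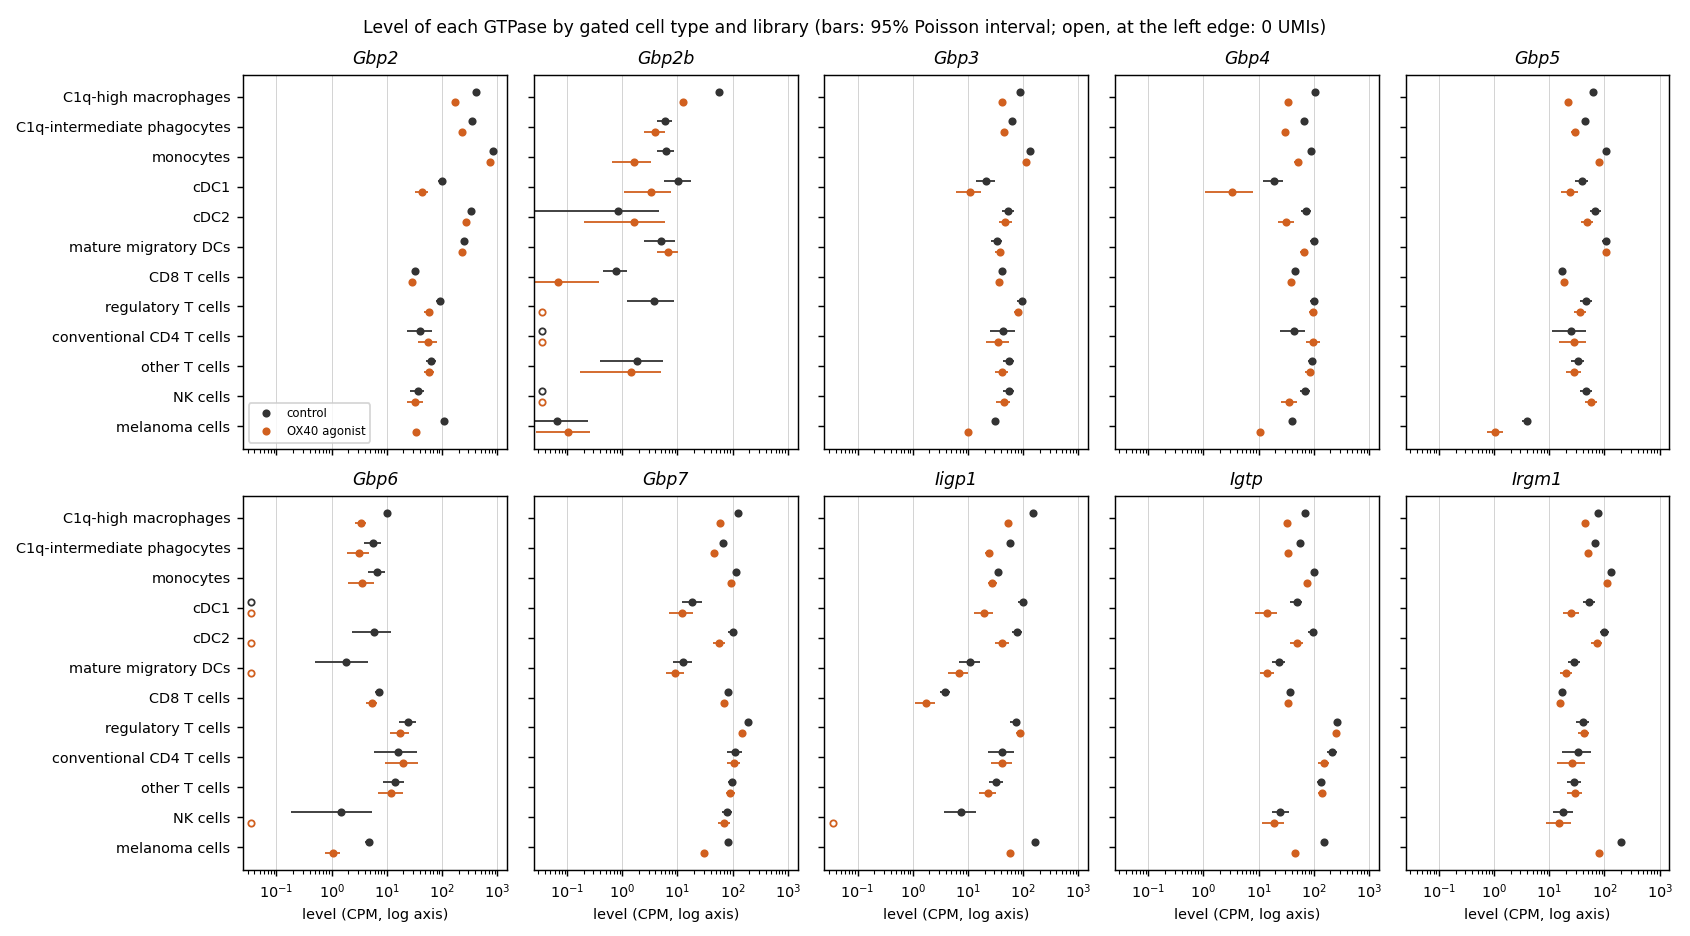
Level of each of the 10 GTPases (CPM, log axis) in the 12 gated cell types with at least 50 cells per library, control in black and OX40 agonist in orange. Bars are 95% Poisson counting intervals, cut at the axis, and open circles at the left edge stand for 0 UMIs. Gbp2 is highest in monocytes, Gbp2b in C1q-high macrophages and Igtp in regulatory T cells in both libraries, and in melanoma cells the treated point lies left of the control point for every member but Gbp2b.

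Gbp2, a GBP that is recruited to bacteria and vacuoles, made up the largest share of the members' UMIs in the phagocytes. It was at 851 CPM (826 to 876) in control monocytes and 731 CPM (706 to 757) in treated monocytes. C1q-high macrophages came next in the control library at 411 CPM, but in the treated library, at 172 CPM, they stood behind monocytes, cDC2 (267 CPM), migratory DCs (235 CPM) and C1q-intermediate phagocytes (232 CPM). Those 3 treated levels overlapped within counting error. The lymphoid classes lay between 29.1 CPM in treated CD8 T cells and 92.8 CPM in control regulatory T cells. Gbp2 was 53.9% and 56.7% of the members' UMIs in monocytes, 35.4% and 36.4% in C1q-high macrophages, but 11.3% and 11.6% in CD8 T cells and 13.9% and 12.8% in melanoma cells.

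Gbp2b (also called Gbp1), the neighbour of Gbp2, was highest in C1q-high macrophages among the 12 classes with at least 50 cells. It stood there at 56.1 CPM (52.7 to 59.5) in the control and 12.5 CPM (11.1 to 14.1) in the treated library. The next of these classes was cDC1 in the control library, at 10.4 CPM from 14 UMIs, and migratory DCs in the treated library, at 6.75 CPM from 23 UMIs. B cells, a class below 50 cells, had 0 UMIs in the control library and 58.7 CPM from 20 UMIs in the treated library. Conventional CD4 T cells and NK cells had 0 UMIs in both libraries, where 3 UMIs would have been 8.13 and 5.90 CPM in the CD4 T cells. Melanoma cells, the most deeply covered class, had 2 and 4 UMIs of Gbp2b, or 0.0653 and 0.102 CPM. For every 100 Gbp2 UMIs, C1q-high macrophages held 13.7 and 7.29 Gbp2b UMIs, monocytes 0.738 and 0.224, and melanoma cells 0.0598 and 0.297. Among these, C1q-high macrophages stood apart in both libraries. The treated monocytes and melanoma cells rested on 7 and 4 Gbp2b UMIs and changed their order between the libraries.

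Gbp3 and Gbp4 were broadly spread. Gbp3, whose product is less studied, was highest in monocytes at 135 and 114 CPM, followed by regulatory T cells at 94.3 and 79.6 CPM. It was lowest in cDC1 in the control library (20.9 CPM) and in melanoma cells in the treated library (9.84 CPM). Gbp4 was at 107 CPM in control C1q-high macrophages, 101 CPM in control regulatory T cells and 99.3 CPM in control migratory DCs, with overlapping intervals. In the treated library its highest levels were in T cells, at 98.3 CPM in conventional CD4, 95.1 CPM in regulatory and 83.7 CPM in other T cells, again overlapping. Gbp4 shares 18.5% of the 50-base words of its 3′ ends with other genes, the most with Gbp6, and the gene models of Gbp8 and Gbp9 overlap it, so its counts could be split between copies.

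Gbp5, which promotes Nlrp3 inflammasome assembly, was highest in migratory DCs (105 and 108 CPM) and monocytes (105 and 80.4 CPM). In the control library these levels overlapped, and in the treated library migratory DCs were higher. NK cells held 46.6 and 58.1 CPM. Melanoma cells were lowest, at 3.89 and 1.05 CPM, although they held other GBPs such as Gbp7 at 83.7 and 30.4 CPM. Gbp6 was low everywhere, with its highest levels in regulatory T cells (24.2 and 17.2 CPM) and conventional CD4 T cells (16.3 and 19.7 CPM, from 6 and 10 UMIs). Because 78.9% of the words of its 3′ end also occur in Gbp10, its level is uncertain. Gbp7, a GBP tied to vacuole targeting and host defence, was highest in regulatory T cells at 192 and 147 CPM, and lowest in migratory DCs at 12.7 and 9.10 CPM, the class where Gbp5 was high.

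The 3 IRGs did not all have their highest level in the same class, in either library. Iigp1, the effector, was highest in melanoma cells (165 CPM) and C1q-high macrophages (153 CPM) of the control library. In the treated library regulatory T cells led, at 87.9 CPM (74.3 to 103), ahead of melanoma cells at 57.5 CPM. It was low in CD8 T cells, at 3.89 CPM (91 UMIs) and 1.69 CPM (25 UMIs), and in NK cells, at 7.52 CPM (10 UMIs) and 0 UMIs (3 UMIs would be 2.81 CPM). Igtp, a regulator, was highest in regulatory T cells at 266 and 253 CPM, then in conventional CD4 T cells at 214 and 153 CPM. The intervals of these classes overlapped in the control library and not in the treated one. CD8 T cells held far less, 37.3 and 33.7 CPM. Irgm1, the other regulator, was highest in control melanoma cells at 196 CPM (191 to 201), above monocytes at 133 CPM (123 to 143). In the treated library monocytes led at 112 CPM, with melanoma cells at 78.8 CPM. As a share of the members' UMIs, the 3 IRGs made up 21.0%, 19.5% and 25.0% in control melanoma cells (Iigp1, Igtp, Irgm1), and 21.4%, 16.7% and 29.4% in treated ones.

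Between the libraries, the phagocytes differed in a graded way. All 10 members were lower in treated than in control C1q-high macrophages, each by 1.5-fold or more. Of the 7222 measured genes, 46.8% were lower and 1.43% lower by that size. The median log2 ratio of the members was -1.08, against 0.01 for all measured genes. Gbp2b was at 0.223 times its control level (0.194 to 0.256), Gbp4 at 0.318 times (0.292 to 0.347) and Iigp1 at 0.343 times (0.320 to 0.368). The smallest difference among the well counted members was that of Irgm1, from 77.5 to 43.9 CPM, 0.566 times (0.521 to 0.615). In C1q-intermediate phagocytes, 8 of 8 measured members were lower and 2 of them, Gbp4 and Iigp1, by 1.5-fold or more (background 49.2% lower, 0.606% by that size), with a median of -0.53. In monocytes, 8 of 8 were lower and 1, Gbp4 at 0.582 times (0.493 to 0.685), by 1.5-fold or more (background 51.3% lower, 0.122% by that size), with a median of -0.28.

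Over the 3 sub-gates together, 9 of 9 measured members were lower, 8 of them by 1.5-fold or more (background 46.3% lower, 0.794% by that size), with a median log2 ratio of -0.84. Irgm1 was the member short of that size, at -0.56. Gbp6 was below 10 CPM in both libraries, at 8.53 and 3.34 CPM. With the sub-gates weighted as in the control library the median was -0.75, and over the 1464 control and 2256 treated phagocytes without a UMI of the 8 T cell markers it was -0.82. The T cell list stood at 123 and 103 CPM in phagocytes, with none of the 8 markers at 0, and a list of 4 erythroid markers at 526 and 3.04 CPM in C1q-high macrophages and at 4.97 and 916 CPM in C1q-intermediate phagocytes. The part of erythroid RNA in the result was not tested.

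**Figure D2:**
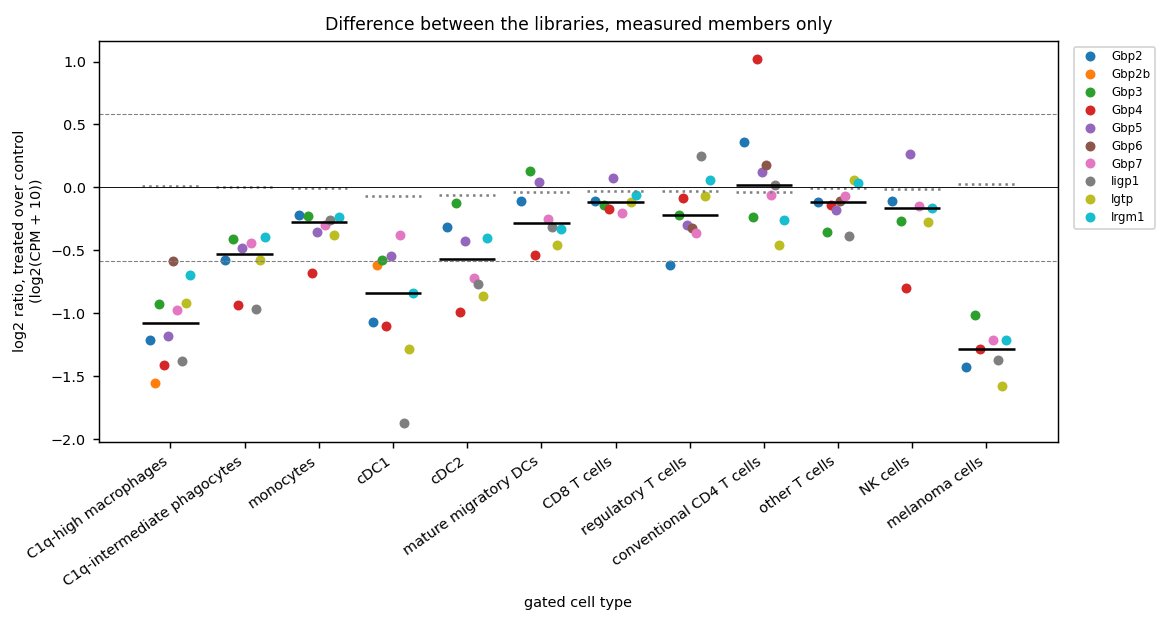
Log2 ratio of treated over control, on the log2(CPM + 10) scale, for the measured members (coloured points) in each of 12 cell types. Black lines are the members' medians, dotted grey lines the medians of all measured genes, and dashed lines 1.5-fold. The medians run from -1.28 in melanoma cells and -1.08 in C1q-high macrophages to -0.28 in monocytes, -0.11 in CD8 T cells and 0.02 in conventional CD4 T cells.

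Clusters drawn without the 10 genes gave the same direction throughout the phagocytes. The clusters still contain other interferon-induced genes, so they are not independent of the response. Of 8 phagocyte clusters, 8 had a lower summed level in the treated library, and in 8 of 8 the counting intervals did not overlap. The clusters come from the same libraries and are not replicates, and no share of all genes was set beside this count. The ratio was lowest in the cluster led by Fcrls, Ccl8 and Gas6, at 0.319 (1292 to 412 CPM). The cluster led by Arg1 and Spp1 had a ratio of 0.400 (606 to 243 CPM), and that led by Chil3 and Hp, which are monocyte genes, 0.841 (1817 to 1529 CPM). The cluster led by Ace and Treml4, the 1 cluster whose summed profile met the monocyte thresholds, had a lower ratio, 0.505 (1122 to 567 CPM). The cluster led by Rsad2 and Ifit1, type I interferon targets, had 1432 and 1054 CPM. The control mix of clusters moved the median log2 ratio of the members over all phagocytes from -0.84 to -0.69.

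**Figure D3:**
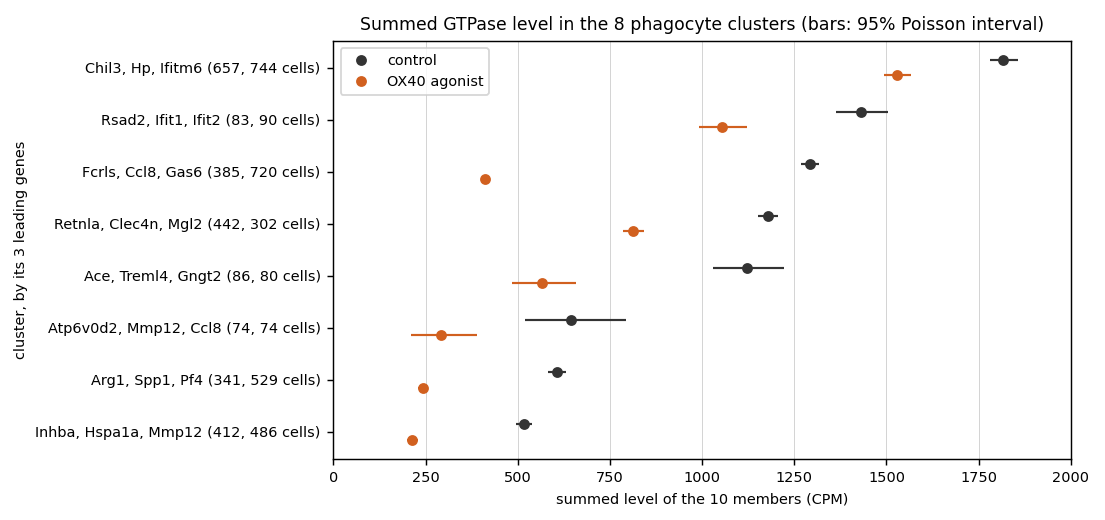
Summed level of the 10 GTPases (CPM, linear axis from 0) in the 8 phagocyte clusters, named by their 3 leading genes, with the numbers of control and treated cells. Points are the libraries and bars 95% Poisson counting intervals. In every cluster the treated point lies left of the control point, from 0.841 times in the Chil3 and Hp cluster to 0.319 times in the Fcrls and Ccl8 cluster.

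Melanoma cells showed the widest gap. The summed level was 786 CPM (776 to 796) in the control and 269 CPM (263 to 274) in the treated library, 0.341 times. Of the 7 measured members, 7 were lower by 1.5-fold or more, while of 7821 measured genes 40.1% were lower, 1.13% lower by that size and 0.0128% higher by it. The ratios ran from 0.262 times (0.234 to 0.294) for Gbp4 to 0.402 times (0.384 to 0.420) for Irgm1. Igtp was at 154 and 44.9 CPM, Gbp2 at 109 and 34.5 CPM and Gbp3 at 30.2 and 9.84 CPM. The median log2 ratio was -1.28, against 0.03 for all measured genes. Leukocyte RNA moved the same way, since the pan leukocyte markers were at 151 and 82.9 CPM and the T cell list at 71.3 and 28.0 CPM in these droplets. Among melanoma cells with under 1 pan leukocyte UMI per 10000 (332 control and 532 treated cells), the median was -1.37, and Irgm1 was at 204 and 80.8 CPM.

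Counted cell by cell, member UMIs were found in a smaller share of treated than of control melanoma cells. A lower level in each cell would also raise the share without a UMI, and the 2 cannot be told apart. No gated class lacks all 10 genes, so no background share from free RNA was set beside these shares. Each cell was thinned to 20000 UMIs, leaving out 58 control and 46 treated cells with fewer. The 357 control cells had a median of 6 member UMIs (quartiles 1 and 18, highest 226), and the 552 treated cells a median of 0 (quartiles 0 and 2, highest 138). No member UMI was seen in 15.4% of control and 55.1% of treated cells. More than the control median was carried by 14.9% of treated cells (12.0 to 18.1), against 45.7% of control cells (40.4 to 51.0). The control share follows from the cut, which is the control cells' own median. Both intervals count cells of 1 library instead of UMIs, and cells are not replicates. Before thinning, over all 415 control and 598 treated cells, the top 10% of cells held 55.4% and 81.2% of the members' UMIs. That share also carries differences in depth between cells. After thinning, the highest treated cell carried 138 member UMIs.

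The same count in C1q-high macrophages, at 5000 UMIs per cell, gave medians of 3 and 1 member UMIs, with 18.3% and 45.3% of cells at 0. C1q-intermediate phagocytes had medians of 2 and 1. Monocytes had medians of 5 and 4, with 12.0% and 22.2% at 0. CD8 T cells had a median of 1 in both libraries, with 28.0% and 32.8% at 0. The quartiles of the macrophages were 1 and 8 in control cells against 0 and 3 in treated cells, while those of CD8 T cells were 0 and 2 in both.

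**Figure D4:**
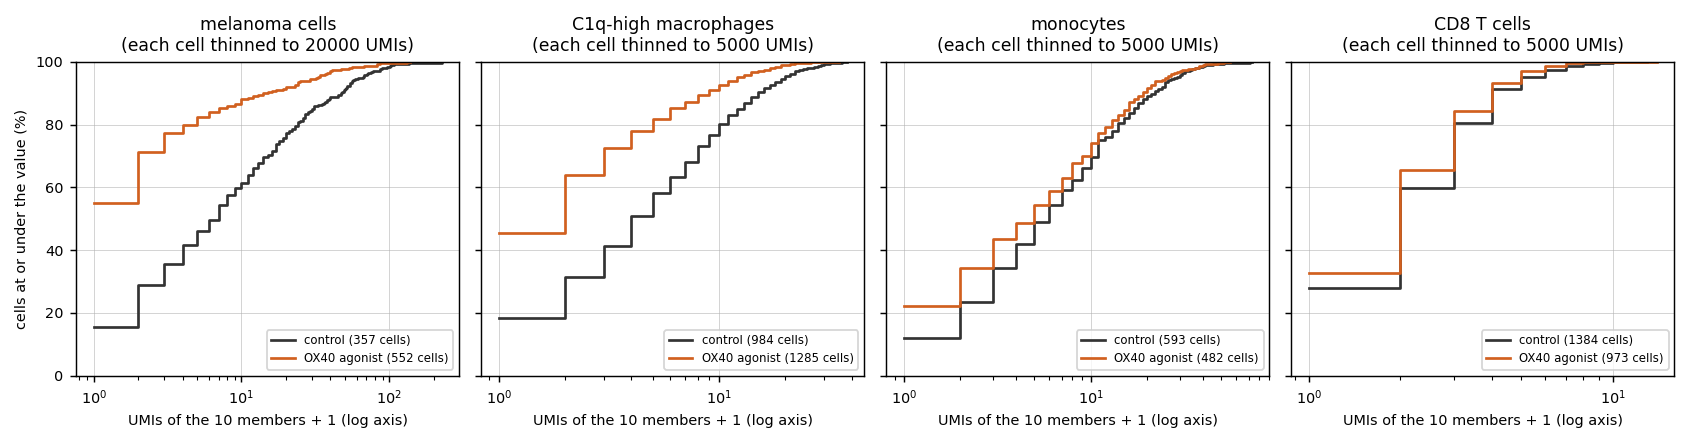
Cumulative distribution over cells of the UMIs of the 10 GTPases (plus 1, log axis), after thinning each cell to 20000 UMIs in melanoma cells and 5000 UMIs in the other panels, control in black and OX40 agonist in orange. The curves start at the share of cells without a member UMI, which is 15.4% and 55.1% in melanoma cells and 28.0% and 32.8% in CD8 T cells.

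Within melanoma cells the more abundant members varied together from cell to cell to differing degrees, while Gbp2b, Gbp5 and Gbp6 were too sparse there to describe. Over the thinned cells of a library, Spearman's rho between Iigp1 and Igtp was 0.72 in both libraries, between Igtp and Irgm1 0.75 and 0.60, between Gbp7 and Igtp 0.69 and 0.72, and between Gbp2 and Gbp7 0.59 and 0.67 (357 and 552 cells). Lower values were found for Gbp3, at 0.36 in both libraries with Irgm1 and at 0.38 and 0.41 with Gbp4. With Gbp2 it had 0.51 and 0.56, and with Gbp7 0.48 in both libraries. Gbp3 was itself sparse, with means of 0.54 and 0.18 UMIs per thinned cell against 3.66 and 1.52 for Irgm1. The part of sparsity in its rho was not tested. The member sum had a rho of -0.14 and -0.02 with the pan leukocyte list, 0.07 and 0.10 with the UMIs per cell and -0.07 and -0.10 with the mitochondrial percentage. These are descriptions of cells of 1 library each, which share a tumour sample and a preparation.

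The dendritic cells split by subset. In cDC1, which cross-present antigen, 9 of 9 measured members were lower and 6 by 1.5-fold or more (background 59.5% lower, 4.22% by that size), with a median log2 ratio of -0.84. These counts rest on few UMIs: with each cell thinned to 1000 UMIs, 4 of the 9 members turned positive, Gbp3 (0.99), Gbp5 (0.87), Gbp7 (1.57) and Irgm1 (0.17), while Iigp1 stayed past 1.5-fold in every alternative run. Iigp1 went from 97.7 CPM (131 UMIs) to 19.4 CPM (29 UMIs), 0.198 times (0.128 to 0.298), and Igtp from 48.5 to 14.0 CPM. In cDC2, 8 of 8 were lower and 4, Gbp4, Gbp7, Iigp1 and Igtp, by 1.5-fold or more (background 60.5% lower, 4.18% by that size), with a median of -0.57. In these cDC2 the T cell list was at 141 CPM in the control and 15.6 CPM in the treated library, and its part in the result was not tested. In migratory DCs, 6 of 8 were lower and 0 reached 1.5-fold (background 57.3% lower, 0.82% by that size), and Gbp5 was at 105 and 108 CPM, 1.03 times (0.873 to 1.22).

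In CD8 T, NK and other T cells most measured members lay close together between the libraries. In CD8 T cells 6 of 7 measured members were lower, 0 by 1.5-fold or more, where 61% of all measured genes were lower and 0.143% lower by that size. Their median log2 ratio was -0.11. Gbp7, the highest member there, was at 82.6 and 70.5 CPM, 0.854 times (0.791 to 0.921), and Gbp5 at 17.3 and 18.8 CPM, 1.08 times (0.927 to 1.27). In NK cells 6 of 7 were lower and 1, Gbp4 at 0.514 times (0.343 to 0.758), by 1.5-fold or more (background 52.6% lower, 2.6% by that size). In other T cells 7 of 9 were lower and 0 by that size (background 51.9% lower, 2.07% by that size). Members below 10 CPM in both libraries are outside these counts. In CD8 T cells these were Iigp1 at 0.435 times (0.268 to 0.684), Gbp6 at 0.736 times (0.555 to 0.968) and Gbp2b with 18 and 1 UMIs. In NK cells Iigp1 had 10 and 0 UMIs, Gbp6 2 and 0, and Gbp2b 0 in both libraries.

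Regulatory T cells kept high levels in both libraries. Their summed level was 934 CPM (882 to 987) and 815 CPM (773 to 860), 0.873 times. Of 9 measured members 7 were lower, 1 by 1.5-fold or more (background 55.3% lower, 2.38% by that size), namely Gbp2 at 92.8 and 57.0 CPM. In the control library 1 cell held 29 of the 123 Gbp2 UMIs, and with the top cell left out the log2 ratio of Gbp2 went from -0.62 to -0.36, short of 1.5-fold. Iigp1 was at 72.5 and 87.9 CPM, 1.21 times (0.932 to 1.59), and Igtp at 0.951 times (0.823 to 1.10), so for both the interval included 1. The macrophage list in the regulatory T cells was at 220 CPM in the control and 113 CPM in the treated library, with none of its 6 markers at 0, and its part in the Gbp2 difference was not tested. Conventional CD4 T cells had 566 and 562 CPM in sum, with 4 of 9 measured members lower and 5 higher, 1 of them by 1.5-fold or more (background 52.8% lower, 13.3% lower and 10.9% higher by that size). That member was Gbp4, at 43.4 CPM (16 UMIs) and 98.3 CPM (50 UMIs).

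Classes below 50 cells in a library are given as values only. Neutrophils (38 and 106 cells, with medians of 1609 and 1354 UMIs) had summed levels of 1402 and 573 CPM, 53.2% and 46.7% of it from Gbp2 (746 and 268 CPM), and 0 UMIs of Iigp1 in both libraries. Plasmacytoid DCs (22 and 48 cells) had 459 and 265 CPM, led by Iigp1 at 153 and 49.2 CPM in the control and by Gbp4 at 87.4 and 70.8 CPM in the treated library. B cells (15 and 48 cells) had 473 and 552 CPM, with Gbp2b at 0 in the control and 58.7 CPM (20 UMIs) in the treated library. Of all measured genes, 20.4% in plasmacytoid DCs, 27.1% in B cells and 40.6% in neutrophils were lower by 1.5-fold or more, so single ratios there show little.

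The genes of the pathway were described by role, from the same summed counts. Of the ligands, Ifng was at 565.5 and 539 CPM in CD8 T cells and 211 and 188 CPM in NK cells. It was higher in the treated library in regulatory T cells, at 31.7 CPM (42 UMIs) and 113 CPM (190 UMIs). In conventional CD4 T cells it was at 97.6 and 352 CPM, 3.60 times (2.51 to 5.31), where 10.9% of all measured genes were higher by 1.5-fold or more. The NK marker list in that class stood at 27.1 and 181 CPM and the migratory DC list at 309 and 104 CPM. The part of these in the Ifng difference was not tested. Ifnb1 in C1q-high macrophages was at 22.9 and 15.9 CPM. The receptor genes differed little where the members differed most. In melanoma cells 1 of 4 receptor genes was lower and 3 higher (background 40.1% lower), with a median log2 ratio of 0.01. In C1q-high macrophages 2 of 4 were lower (background 46.8% lower), with a median of 0.05. Ifngr2, the signalling chain of the receptor, was at 43.0 and 50.9 CPM in melanoma cells.

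Of 8 listed transcription factors, 7 of 8 measured were lower in C1q-high macrophages, with a median of -0.45. Of these, 2, Ciita and Batf2, were lower by 1.5-fold or more (background 46.8% lower, 1.43% by that size). In melanoma cells 6 of 6 measured were lower, 2 by that size (background 40.1% lower, 1.13% by that size). Their median was -0.51, and Irf1 led at 59.0 and 25.1 CPM. Of the inhibitors, Socs1 was at 43.8 and 25.3 CPM in C1q-high macrophages and at 75.5 and 119 CPM in regulatory T cells.

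Other targets of interferon-gamma were lower together with the GTPases in some classes and less so in others. In C1q-high macrophages 12 of 12 measured were lower, 10 by 1.5-fold or more (background 46.8% lower, 1.43% by that size). Their median was -0.76, and Nos2, Cxcl9 and H2-Ab1 led. In melanoma cells 9 of 9 were lower, 8 by that size (background 40.1% lower, 1.13% by that size). Their median was -1.24, and Cd74 (950.1 and 302 CPM), Psmb9 and Psmb8 led. In monocytes 11 of 12 were lower, 1 by that size (background 51.3% lower, 0.122% by that size), with a median of -0.13. In CD8 T cells 6 of 11 were lower (background 61% lower), with a median of -0.06. In cDC1 and cDC2 the list was lower by less than the GTPases. Its median was -0.17 in cDC1 (9 of 11 lower, 1 by that size), where the GTPases had -0.84 (background 59.5% lower, 4.22% by that size). In cDC2 it was -0.16 (8 of 11 lower, 1 by that size), against -0.57 (background 60.5% lower, 4.18% by that size). In mature migratory DCs both medians were -0.28, with 10 of 11 listed genes lower, 2 by that size (background 57.3% lower, 0.82% by that size). Type I interferon targets gave medians of -0.40 in C1q-high macrophages, -0.72 in melanoma cells and -0.07 in monocytes. They were on the higher side in C1q-intermediate phagocytes, with a median of 0.16 (7 of 9 higher, where 49.2% of all measured genes were lower). The same held in cDC2, with a median of 0.41 (6 of 8 higher, where 60.5% of all measured genes were lower). In both classes the measured GTPases were all lower. Partners of the GTPases in autophagy and inflammasomes gave medians of -0.03 in C1q-high macrophages and -0.08 in melanoma cells. Among these, Gabarapl2, which the IRG system needs at vacuoles, was at 94.1 and 99.9 CPM in the macrophages.

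In C1q-high macrophages the relatives outside the 10 were mostly counted below 10 CPM, which need not mean low expression where sequence is shared with other genes. Of 13 listed, 11 were among the deposited genes and 4 were measured there, Gbp8, Gbp9, Ifi47 and Mx1, all 4 lower (background 46.8% lower). Ifi47, an IRG, was at 126 and 65.7 CPM there, 114 and 42.8 CPM in melanoma cells and 95.7 and 99.2 CPM in CD8 T cells. Irgm2 was at 17.9 and 5.50 CPM in melanoma cells, and its gene model overlaps Igtp. Of the 50-base words of the transcript ends, 100% in Gbp10, 100% in Tgtp2 and 80.2% in Tgtp1 also occur in other genes. Counts of these relatives are therefore uncertain.

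The likeness of other genes to the members was described by Pearson's r of log2(CPM + 10) over 24 points, the 12 classes in both libraries, among 5305 genes. The points share libraries and cells, so no p-value is given. The members themselves were only partly alike: r was 0.86 between Gbp6 and Igtp, 0.74 between Iigp1 and Irgm1, 0.62 between Gbp2 and Gbp5, 0.01 between Gbp2 and Igtp and -0.20 between Gbp5 and Iigp1. Gbp6 was at most 24.2 CPM in these classes and shares 78.9% of its 3′ words with Gbp10, so its r values, here and below, are uncertain. The genes most like the sum were Rtp4 (0.81), Tmbim6 (0.80), Xaf1 (0.78), Oas3 (0.77), Rap2c (0.76), Mapkapk2 (0.75), Parp9 (0.75), Isg15 (0.74), Zbp1 (0.74) and Ifi47 (0.74). Gbp2 was most like Oasl2 (0.96), Isg15 (0.95) and Ptafr (0.94), and Gbp5 most like Gsdmd (0.94), Map3k8 (0.93) and Tapbp (0.90). Gbp2b was most like Vcam1 (0.80), Ccl8 (0.79) and Clta (0.75), and Gbp4 most like Irf1 (0.81), Parp9 (0.79) and B2m (0.77). For Gbp3 these were Tmbim6 (0.90), Mapkapk2 (0.85) and Pxk (0.85), for Gbp6 Tmem154 (0.91), Lamc1 (0.90) and Izumo1r (0.90), and for Gbp7 Tmem50a (0.87), Ifi47 (0.86) and Plec (0.84). For Iigp1 they were Prdx4 (0.86), Ufsp2 (0.76) and Dst (0.76), for Igtp Anxa11 (0.85), Isg20 (0.84) and Hif1a (0.80), and for Irgm1 Vim (0.88), Bst2 (0.88) and Hpse (0.86).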

How the data were processed

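Droplet libraries were made with 10x Genomics 3′ v3 chemistry, per the labels' protocols. The deposited values are UMI counts per gene and barcode, whole numbers without normalization. They were made with Cell Ranger on mm10, per the submitters' processing notes, version 3.1.0 per the file headers. Kept barcodes had at least 500 UMIs, 200 genes and at most 10% mitochondrial UMIs. Scrublet scores (scanpy 1.11.5, 2 simulated doublets per cell) removed the highest 0.8% per 1000 barcodes, 365 control and 514 treated, because the automatic threshold marked 0 and 1.

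Cells were gated by UMIs of a marker list per 10000 and by its distinct markers (melanoma 50 and 5, phagocyte 60 and 5, T cell 20 and 3). C1q-high needed 40 or more of the macrophage list, and monocytes under 10 of it with 20 or more of the monocyte list. These thresholds were set after seeing the data, and 373 phagocytes lay near the macrophage threshold. UMIs were summed per class and scaled to CPM. Poisson, Clopper-Pearson and conditional ratio intervals (scipy 1.17.1) cover counting error at the 95% level. The interval code was tested on simulated data. Genes likest the members needed 50 CPM in 1 point and 30 UMIs, and the 10 highest for the sum and 3 per member are named. In the pathway lists up to 3 genes per role were named by size. The members and lists were chosen with earlier results of these data known.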

Additional observations from a re-analysis of the deposited data

Results flagged for a closer look

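Gbp4 in conventional CD4 T cells was at 2.27 times its control level (1.27 to 4.26), while in 9 of the 12 classes its ratio interval lay below 1. It is singled out because the class moved opposite to the others, and the difference between classes was not tested. The values rest on 16 UMIs in 54 control cells and 50 UMIs in 97 treated cells, with at most 2 and 4 UMIs in a single cell. In this class 10.9% of all measured genes were higher by 1.5-fold or more. The 10 dissociation stress genes of the list were all higher there, 7 of them by 1.5-fold or more, with a median log2 ratio of 0.65. The NK marker list in this class stood at 27.1 and 181 CPM and the migratory DC list at 309 and 104 CPM. The part of the stress genes and of these lists in the result was not tested. Under the alternatives that left such a class, the log2 ratio of Gbp4 ran from 0.55 to 1.30.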

How the results depend on the processing

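No paired analysis was possible because each group is 1 library, and no library could be left out. In each alternative run, 9 of 9 measured members stayed lower in phagocytes, 7 of 7 in melanoma cells and 6 of 7 in CD8 T cells, and 7 members stayed higher in phagocytes than in CD8 T cells. The phagocyte median log2 ratio of -0.84 was -0.70 after thinning to 1000 UMIs, -0.69 (-0.685) as a mean over cells and -0.54 with a pseudocount of 50 CPM. Added after seeing the data, the control mix gave -0.75 for sub-gates and -0.69 (-0.6854) for clusters. The melanoma median of -1.28 was -1.20 with at most 5% mitochondrial UMIs, -1.38 with a total free of mitochondrial and ribosomal protein genes, -1.52 and -0.92 with pseudocounts of 1 and 50 CPM, and -1.37 in cells low in leukocyte UMIs. Thinning to 1000 UMIs reversed Irgm1 in cDC1 from -0.84 to 0.17 (0.165) and turned members short of 1.5-fold positive, Gbp3 (0.99), Gbp5 (0.87) and Gbp7 (1.57) in cDC1 and Irgm1 in monocytes (0.02); the cause was not tested. Gbp2 in regulatory T cells, at -0.62, ended as close to 0 as -0.23 as a mean over cells. Of 108 measured member and class pairs, 41 were past 1.5-fold, and 16 of these were past it in all alternatives run. The pooled phagocytes gave 8 of the 41, and the same cells are counted again in their sub-gates. Depth limits cDC1, cDC2, conventional CD4 T and NK cells, where many members rest on few UMIs.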
